A study of Homo sapiens with 2 samples.

Results

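Keratins are the intermediate filament proteins of epithelial cells. A filament is built from obligate heterodimers, in which 1 acidic type I keratin pairs with 1 basic or neutral type II keratin, so the type I and type II members of an epithelium are usually described as partners. KRT8 and KRT18 form the filaments of simple, single-layered epithelia, with KRT7 and KRT19 added in ducts and glands. In stratified epithelia the cells that leave the basal layer exchange KRT5 and KRT14 for a suprabasal pair, which is KRT4 with KRT13 in the moist lining of the mouth and KRT1 with KRT10 in the epidermis. Carcinomas of stratified epithelium often carry simple keratins as well, and keratin antibodies are used in pathology to trace the origin of a tumour.

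The 10 keratins described here were the simple keratins KRT7, KRT8, KRT18, KRT19, KRT20 and KRT23 and the suprabasal keratins KRT4, KRT13, KRT1 and KRT10. They were chosen by gene symbol rather than by their values, but with earlier results of these data known. All 10 were on the array, with 14 of its 41000 probes; the array lists 30484 gene or transcript names. The 14 probes comprised 4 for KRT18, 2 for KRT8 and 1 for each other gene, each spotted once. By the array's own positions in the human genome build hg18, 9 of the probes (5 genes) lie on chromosome 12, which holds the type II keratins and KRT18, and 5 (5 genes) on chromosome 17, which holds the other type I keratins.

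Total RNA was taken during log growth from SAS cells, an established line from a human squamous cell carcinoma of the tongue, and from eSAS cells, the population left after 5 rounds of selecting SAS cells for large spheroids with a removable mesh. Neither was labelled with a genetic alteration or a drug, and the labels give both the same serum-containing growth medium. The study's methods include the picking of single cells to set up a line, and the labels do not say whether eSAS cells descend from 1 cell. RNA of each population was hybridised to 1 one-colour array, and both arrays lay on 1 slide. There is therefore no replicate, no test between SAS and eSAS was possible, and the precision of each value is limited by having 1 array per population; in bulk RNA, fewer cells of a type and less RNA per cell cannot be told apart.

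The unit throughout is the processed signal, a background-subtracted brightness on a linear scale. The log2 ratio of eSAS to SAS was computed after each signal had been divided by the 75th percentile of its array (1242 for SAS and 1196 for eSAS), a step that moved every log2 ratio by 0.054. The software judged 69.4% of the SAS probe spots and 67.5% of the eSAS probe spots well above background. Of 6 genes that mark squamous or basal keratinocytes, 6 were well above background on both arrays. Of 5 fibroblast genes, 0 were so on both arrays, with a summed signal of 53.1 for SAS and 62.8 for eSAS; COL1A1 was well above background on SAS alone (15.2), LUM on eSAS alone (29.6), and COL1A2, COL3A1 and DCN on neither. Of 3 endothelial genes, 1 (VWF) was well above background on both arrays, CDH5 on SAS alone and PECAM1 on neither, with summed signals of 113 and 98.2. The leukocyte genes PTPRC and CD3E were not well above background, while CD68, also present in other cells, gave 717 and 752. The ratios are set beside measures of error from within the arrays, which do not hold the spread between cultures. The software's own error includes a term of 10% of each signal and so gives the log2 ratio an error of at least 0.20. The spread of probes that were spotted several times on these arrays was smaller, with a pooled SD of 0.19 for signals under 100 (22 probes), 0.071 from 100 to 1000 (52 probes), 0.041 from 1000 to 10000 (96 probes) and 0.045 above 10000 (41 probes).

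Of the 14 probes, 12 were well above background on both arrays, and the KRT1 and KRT20 probes were so on neither. In eSAS 0 of the 12 probes were higher by 2-fold or more and 0 were lower by as much, beside 1.83% and 1.97% (3.79% in either direction) of the 28439 probes measured on at least 1 array. At a lower threshold of 1.5-fold, 0 of 12 were higher and 1, the KRT23 probe, was lower, against 4.43% and 6.12% of all probes. Within 1.2-fold, a limit chosen after the values were seen, lay 9 of the 12, beside 72.8% of the 26659 probes measured on both arrays. The median log2 ratio of the 8 measured genes was -0.061, and that of 19467 genes named on the array was -0.0012. Of the 8 genes 3 lay over 0 and 5 under. Of the 12 probes 7 lay over 0, beside 49.2% of the 26659 probes measured on both arrays. In size, irrespective of sign, the median was 0.20 for the 8 genes and 0.14 for all genes. The software marked 0 of the 14 spots as uneven or as an outlier, and 0 lay in the band of rows 450 to 510 that held 196 of the 267 marked probe spots of the SAS array.

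**Figure D1:**
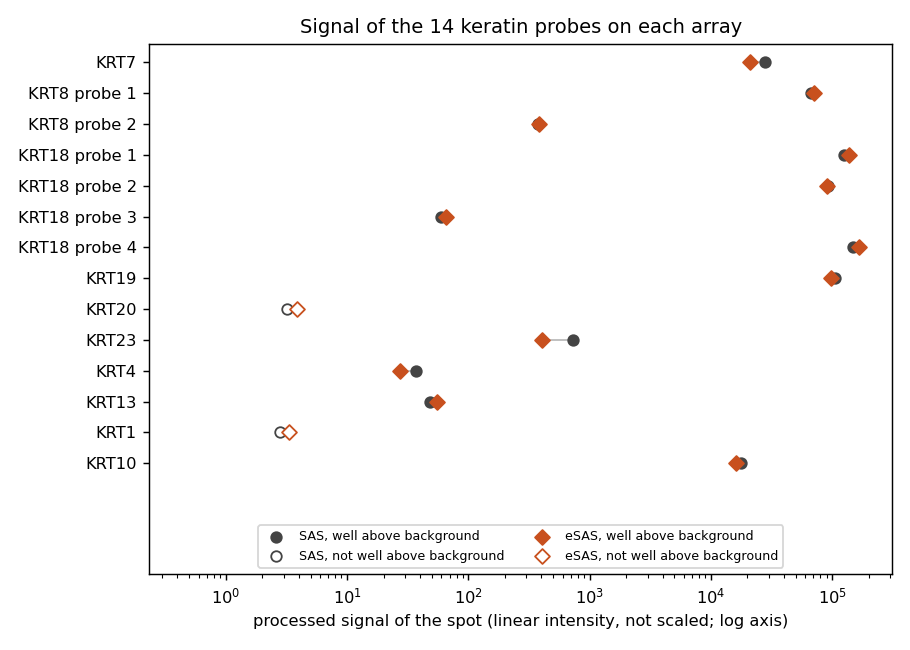
Processed signal of each of the 14 keratin probes (log axis, linear intensity before scaling) on the SAS array (circles) and the eSAS array (diamonds), with open symbols where the probe was not well above background. The symbols of a probe lie close together for most keratins, KRT23 is the widest gap among the probes measured on both arrays (724 on SAS and 407 on eSAS), and KRT1 and KRT20 are open on both arrays; distances between different probes are not differences in RNA.

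The simple type II keratins lay on opposite sides of 0. KRT8, the type II keratin of all simple epithelia, had 2 probes. KRT8 probe 1 (A_23_P14072, chr12:51577293-51577352, minus strand) gave a signal of 66318 in SAS and 71233 in eSAS, a log2 ratio of 0.16 ± 0.20 (software error) or 1.12-fold higher in eSAS. KRT8 probe 2 (A_24_P67395, chr12:51580728-51581262, minus strand) is listed over 535 bases and gave 377 and 384, a log2 ratio of 0.082 ± 0.20. Both probes thus lay slightly above 0 and inside the software error, and their mean was 0.12 (SD between the 2 probes 0.053). KRT7 is the type II keratin of glandular and ductal epithelium. Its probe (A_23_P381945, chr12:50917564-50918733, plus strand, listed over 1170 bases) gave 28090 on SAS and 20919 on eSAS, a log2 ratio of -0.37 ± 0.20, or 1.29-fold lower in eSAS. That is 1.82 times the software error and 8.33 times the SD of replicate spots of like brightness. Here and below, neither measure holds the spread between cultures. Over 19467 genes measured on both arrays, the log2 ratio had an SD of 0.37. The difference of log2 ratios, KRT7 minus the mean of KRT8, was -0.49, so that their relative signal changed 1.41-fold between the arrays.

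KRT18, the type I partner of KRT8, is the keratin with the most probes, and 2 of the 3 listed on the plus strand gave nearly the same ratio. KRT18 probe 1 (A_23_P99320, chr12:51630879-51630938, plus strand) had a signal of 123960 on SAS and 138140 on eSAS, a log2 ratio of 0.21 ± 0.20. KRT18 probe 4 (A_32_P151544, chr12:51632383-51632821, plus strand, listed over 439 bases) had 149600 and 165170, a log2 ratio of 0.20 ± 0.20. These bright probes were 1.16-fold and 1.15-fold higher in eSAS, which is 4.73 and 4.43 times the SD of replicate spots. KRT18 probe 2 (A_24_P42136, chr12:51631844-51631903, plus strand) was also bright, with 92024 and 89996, yet its log2 ratio was 0.022 and turned to -0.032 when the arrays were not scaled. KRT18 probe 3 (A_24_P924957, chr12:51632837-51632897) is listed on the minus strand, opposite to the other 3, and its dim signals of 59.5 and 65.8 gave a log2 ratio of 0.20 ± 0.23. What that probe detects was not tested. No spot of KRT18 was near saturation, which lies at 778745. The mean over the 4 probes, the minus-strand probe included, was 0.16 (SD between probes 0.090). The difference of the partners, KRT8 minus that mean of KRT18, was -0.037, less than the SD between the probes of either gene. The KRT8 and KRT18 probes lie 53.6 kb apart on chromosome 12, where KRT18 is the only type I gene in the type II cluster.

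KRT19, the smallest keratin, lacks the tail domain and is found in simple epithelia and in some basal cells. Its probe (A_23_P66798, chr17:36933444-36933503, minus strand) had a signal of 104810 on SAS and 97635 on eSAS. The log2 ratio was -0.048 ± 0.20, which is 1.08 times the SD of replicate spots. The signals of KRT19 thus lay within 1.03-fold of each other after scaling, and its log2 ratio minus the mean of KRT18 was -0.21.

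KRT20 and KRT23 are type I keratins with narrower patterns; KRT20 marks gut epithelium, urothelial umbrella cells and Merkel cells. The KRT20 probe (A_23_P66854, chr17:36286058-36286117, minus strand) read 3.22 on SAS and 3.89 on eSAS and was not well above background on either array, so it has no ratio. KRT23 (A_23_P78248, chr17:36332488-36332547, minus strand), a less studied type I keratin, had a signal of 724 on SAS and 407 on eSAS. Its log2 ratio of -0.78 ± 0.20 was 3.8 times the software error and 10.9 times the SD of replicate spots, and at 1.71-fold lower in eSAS it was the largest difference among the 12 probes. The raw pixels of the spot ran the same way: the mean pixel was 870 on SAS and 504 on eSAS, and the median pixel 874 and 502. The value rests on a single spot per array. It became -0.50 when the background was modelled with the normexp method on all spots, and lay between -0.83 and -0.71 under the other settings tried.

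KRT4 and KRT13 form the suprabasal filaments of the oral mucosa, the tissue from which the SAS tumour arose, and both gave dim signals in these cells. KRT4 (A_23_P2674, chr12:51486778-51486837, minus strand) had a signal of 36.7 on SAS and 27.1 on eSAS. Its log2 ratio of -0.38 ± 0.31 was 2.06 times the SD of replicate spots at that brightness, but it was -0.060 when median pixels minus the local background replaced the processed signal and -0.080 without background correction. KRT13 (A_24_P228149, chr17:36913446-36914835, minus strand, listed over 1390 bases) had 48.1 and 54.7, a log2 ratio of 0.24 ± 0.26. The partners thus lay on opposite sides of 0, with KRT4 1.31-fold lower and KRT13 1.18-fold higher in eSAS. Under normexp on all spots, with an offset of 50, the log2 ratios were -0.029 for KRT4 and 0.038 for KRT13, and without background correction that of KRT13 was 0.16.

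KRT1 and KRT10 are the suprabasal pair of the epidermis and the usual markers of keratinocytes that have begun to keratinise. The type II partner KRT1 (A_23_P128235, chr12:51354838-51354897, minus strand) read 2.80 on SAS and 3.30 on eSAS, not well above background on either array. The type I partner KRT10 (A_23_P49975, chr17:36227962-36228021, minus strand) was well above background, with 17696 on SAS and 16194 on eSAS. Its log2 ratio was -0.074 ± 0.20, or 1.05-fold lower in eSAS. The KRT10 spots were the least even of the member spots with a signal over 300, their pixels having an SD of up to 19.2% of the mean. In both cell populations the KRT10 probe was therefore measured and that of its partner was not.

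**Figure D2:**
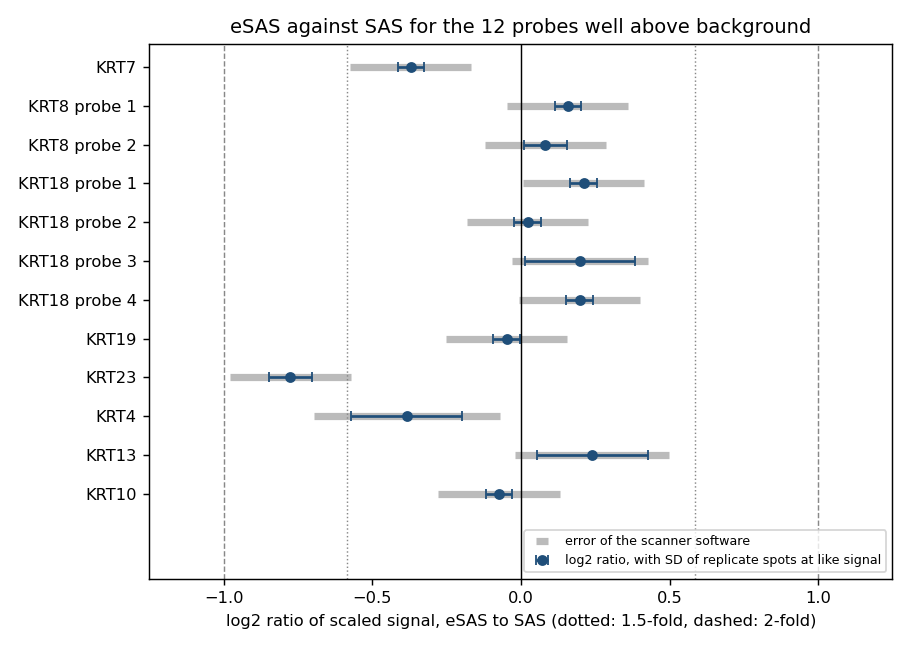
Log2 ratio of scaled signal, eSAS to SAS, for the 12 keratin probes well above background on both arrays, with the software error (grey bars) and the SD of replicate spots of like brightness (blue bars). KRT23 at -0.78 lies past the dotted 1.5-fold line, no probe reaches the dashed 2-fold line, and the grey bars of KRT7, KRT18 probe 1, KRT23 and KRT4 do not cross 0.

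The log2 ratio exceeded the software error for 4 of the 12 probes, namely KRT7, KRT18 probe 1 (only 1.03 times its error), KRT23 and KRT4. The share of all probes past their own software error is not given here, so this count has no baseline. Across the settings of the processing, KRT7 kept between -0.43 and -0.34, KRT18 probe 1 between 0.16 and 0.24 and KRT18 probe 4 between 0.14 and 0.33. KRT8 probe 1 lay between 0.10 and 0.22 and KRT8 probe 2 between 0.028 and 0.12, so both stayed above 0. KRT19 lay between -0.10 and -0.0094 and KRT10 between -0.13 and -0.035. KRT4 lay between -0.44 and -0.029 and KRT13 between 0.038 and 0.27. Only KRT18 probe 2 changed sign, from -0.032 to 0.11.

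**Figure D3:**
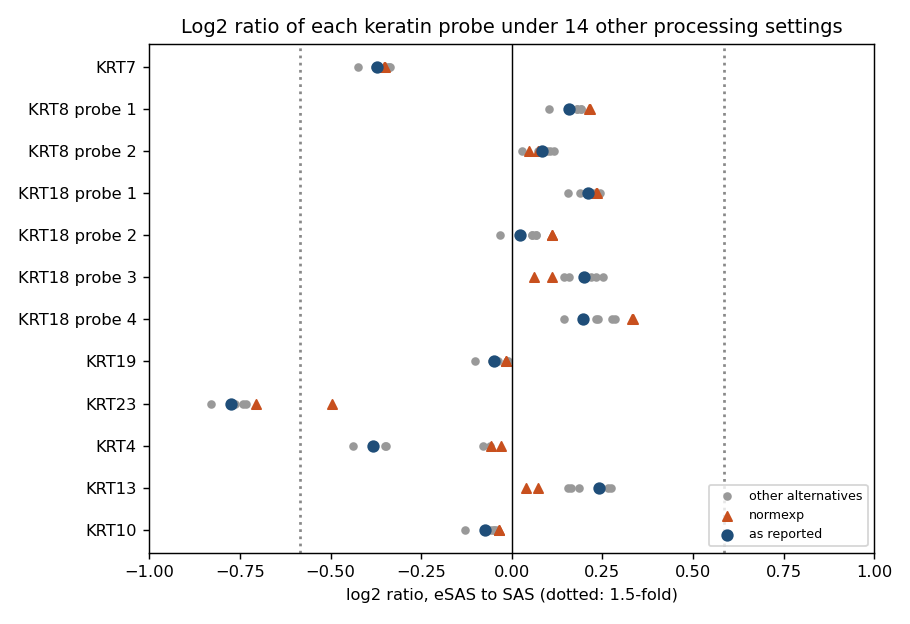
Log2 ratio of each keratin probe, eSAS to SAS, as reported (blue circles), under normexp background modelling (orange triangles) and under the other alternatives (grey). The KRT23 value of -0.50 under normexp on all spots lies inside the dotted 1.5-fold line, the KRT4 and KRT13 values approach 0, and KRT18 probe 2 lies on both sides of 0.

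KRT8, KRT18 and KRT19 have many processed copies in the genome, and the array carries probes for them. Near-identical copies can take up the same labelled RNA, so these probes are not independent measurements, and signal of a gene and of its copies cannot be told apart. They were looked at after the values of the genes were known. Of 35 probes listed for copies of KRT18, 32 were well above background on both arrays, with log2 ratios from -0.16 to 0.68 and a median of 0.16. Of these, 26 lay over 0 and 6 under, beside 49.2% over 0 among all probes measured on both arrays. At least 1.5-fold higher in eSAS was 1 of them, beside 4.43% of all probes. Another 2 copies, KRT18P16 and KRT18P19, had a spot marked on the SAS array and were left out. Of 22 probes listed for copies of KRT8, 21 were measured on both arrays, from -0.38 to 0.42 with a median of 0.098. Among these, 16 lay over 0 and 5 under, and 0 reached 1.5-fold, beside 10.6% of all probes in either direction. The medians of the copies were thus near the means of the parent genes, 0.16 for KRT18 and 0.12 for KRT8. The 2 probes for copies of KRT19 gave 0.14 and 0.16, while the probe of KRT19 itself gave -0.048.

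**Figure D4:**
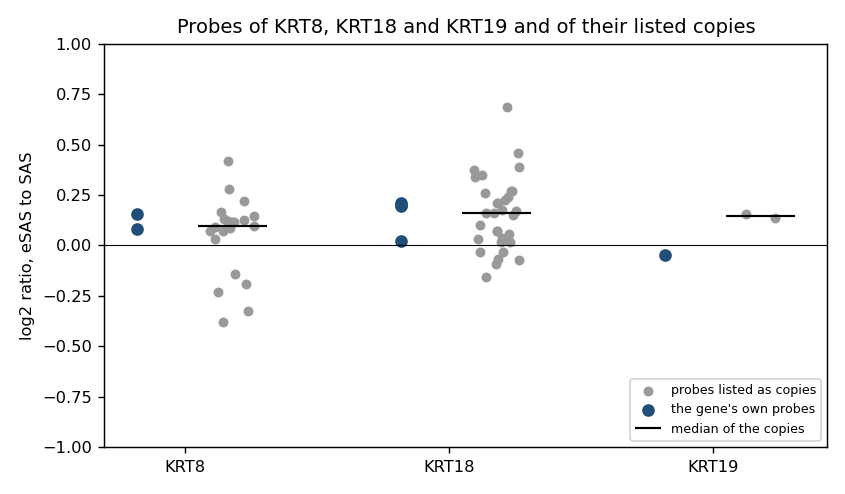
Log2 ratio, eSAS to SAS, of the genes' own probes (blue) and of probes listed for their copies (grey; points are spread sideways for legibility) for KRT8, KRT18 and KRT19, with the median of the copies as a line. The medians are 0.098 for 21 copies of KRT8 and 0.16 for 32 copies of KRT18, and most points lie above 0 and within 0.50 of it.

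The other keratins on the array had larger ratios. Of 48 other keratin probes on chromosomes 12 and 17, 25 were measured on both arrays or on 1, and their median size of log2 ratio was 0.62, beside 0.20 for the member probes. Their values ran from -6.58 to 2.62, and 14 of the 25 were at least 1.5-fold apart, beside 1 of the 12 member probes and 10.6% of all probes. No test of this difference was possible with 1 array each. The groups were also not matched for brightness. Many of the 25 had signals under 100, where replicate spots had a pooled SD of 0.19, while among the measured members only KRT4, KRT13 and KRT18 probe 3 did. How far brightness accounts for the difference was not tested. In a list of 18 other epithelial keratins, of which 17 had an unmarked probe, 14 probes were measured; past 2-fold, 1 was higher and 4 were lower in eSAS (1.83% and 1.97% of all probes), and the median of 11 genes was -0.55.

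The basal pair of stratified epithelium stood on the lower side. KRT5 gave 22037 on SAS and 13677 on eSAS, a log2 ratio of -0.63. The 2 probes of its partner KRT14 disagreed in size, with 8749 and 88.3 (95.4-fold lower in eSAS) for one and 3136 and 1286 (2.35-fold lower) for the other. KRT17, a keratin of wounded and stressed epithelium, gave 5707 and 3764, a log2 ratio of -0.55. Among the other stress keratins, KRT6A gave 46.9 and 32.7 (-0.46), and KRT16 gave 1611 and 975 (-0.67) with one probe. Its other probe was well above background on SAS alone, at 33.9, and at least 2.15-fold lower on eSAS, which read 14.7. KRT6B, a near-identical relative of KRT6A, was the 1 probe of the list past 2-fold higher, with 25.9 on SAS and 153 on eSAS (6.14-fold). KRT9, the keratin of palm and sole skin, gave 150 and 65.3 (2.21-fold lower). The only KRT15 spot, with 4077 and 7482, was marked as uneven or an outlier on the SAS array, and its log2 ratio of 0.93 was not counted. Outside this list, the hair keratins KRT81 (1202 and 2545, a log2 ratio of 1.14) and KRT83 (29.7 and 67.6, 1.24) were higher and the keratin-like gene KRT222, listed on the array as KRT222P (134 and 49.0, -1.39), was lower; they are named because their values were seen. KRT81 and KRT83 are close relatives whose probes may share signal.

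In the chromosome 17 cluster, KRT19 with its small ratio lay close to KRT9 and KRT14 with larger ones. On chromosome 17 the KRT19 probe, at -0.048, lies 42.2 kb from that of KRT9 and 58.8 kb from that of KRT14. The KRT15 probe lies 10.2 kb from that of KRT13 and 9.78 kb from that of KRT19. KRT23 lies 46.4 kb from the unmeasured KRT20. On chromosome 12, KRT4 at -0.38 lies 17.6 kb from KRT79, listed as KRT6L, with a similar ratio of -0.41. The KRT7 probe, at -0.37, lies between those of KRT80 (log2 ratios of -0.67 and -0.95) and of KRT81 (1.14). KRT80 is named after its values were seen.

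**Figure D5:**
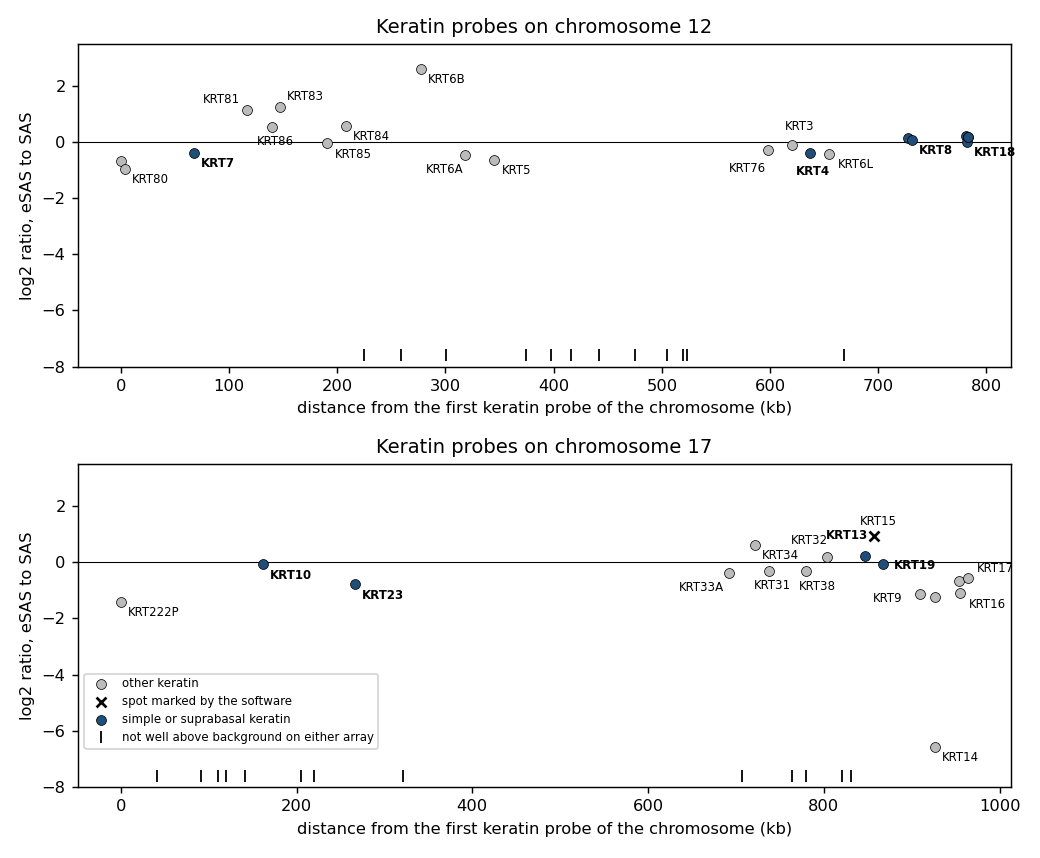
Log2 ratio, eSAS to SAS, of the keratin probes on chromosomes 12 and 17 against distance from the first keratin probe (kb, hg18), with the simple and suprabasal keratins in blue, other keratins in grey, the marked KRT15 spot as a cross and unmeasured probes as ticks at the bottom; the lower KRT16 point is a bound. The blue points stay between -0.78 and 0.24, and the grey points reach -6.58 (KRT14) and 2.62 (KRT6B).

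Among genes for proteins that anchor, bundle or bind keratin filaments, filaggrin alone passed 2-fold. Of 17 such genes, 16 were on the array with 27 measured probes, of which 3 were higher and 0 lower in eSAS by 2-fold or more, beside 1.83% and 1.97% of all probes. The median of the 16 genes was 0.026. All 3 belonged to FLG, whose product aggregates KRT1 and KRT10 filaments in the cornifying epidermis. The FLG probes gave 48.6 on SAS and 206 on eSAS (4.41-fold), 14.5 and 97.7 (7.01-fold), and, well above background on eSAS alone, 12.6 and 27.8 (at least 2.25-fold). Under normexp on all spots 0 of the partner probes passed 2-fold. KRT1 itself was not well above background on either array, and KRT10 differed by 1.05-fold. Epiplakin (EPPK1), which binds simple keratin filaments, gave log2 ratios of 0.96 and 0.96 with 2 probes. Past 1.5-fold, 5 probes of the list were higher, those of FLG and EPPK1, and 2 were lower, those of the desmosomal plakophilin PKP1 (110 on SAS and 59.6 on eSAS, a log2 ratio of -0.83) and of stratifin, SFN (4987 and 3193, -0.59), beside 4.43% and 6.12% of all probes. Desmoplakin (DSP), which anchors the filaments at desmosomes, gave -0.29. EPPK1, PKP1, SFN and DSP are named after their values were seen.

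Of 13 genes of non-keratin intermediate filaments, 14 probes of 12 genes were measured; by 2-fold or more, 0 were higher and 1 lower in eSAS, and by 1.5-fold or more, 0 were higher and 5 lower, beside 1.97% of all probes lower at the first threshold and 6.12% at the other. The median over the 10 genes measured on both arrays was -0.11. The probe past 2-fold was for the neurofilament gene NEFL, well above background on SAS alone at 56.2. That probe read 16.6 on eSAS and was not well above background there, so its 3.26-fold lower signal is a plain ratio, not a bound. The other NEFL probe listed, with 14.2 on SAS and 3.74 on eSAS, was well above background on neither array. Vimentin (VIM), the filament of mesenchymal cells, gave 278 and 177 with one probe and 170 and 108 with the other; both were 1.51-fold to 1.52-fold lower, and it too is named after its values were seen. The lamins A, B1 and B2 of the nuclear envelope lay between -0.18 and 0.22.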

How the data were processed

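RNA of SAS and eSAS cells was labelled with Cy3 and hybridised to 2 one-colour Agilent arrays of 1 slide. The authors deposited the scanner output (Agilent Feature Extraction 10.7.3.1 in the submitters' processing notes), in which each intensity is linear; the processed signal had been background-subtracted but not scaled between arrays. The deposited table of values for the series was equal to it, with 0 differing values. Other deposited columns used were the software's error of the signal, the mean, median and SD of the pixels, and the local background. The software's marks for uneven, outlying, saturated or well-above-background spots and for uneven local backgrounds were used too.

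The 75th percentile of the probe spots was used for scaling, then log2 ratios were taken. Replicate spots were averaged. Marked spots were left out of counts, leaving 40814 probes. Where a probe was well above background on 1 array alone, its signal on the other was compared with the lowest well-above-background signal (12.8 for SAS and 15.2 for eSAS). A signal under that limit was raised to it, so that the fold is a lower bound. A signal over the limit was kept, and the fold is then a plain ratio. Older array names were updated through the RefSeq gene table. Positions come from the array design (hg18); exons and UTRs were not annotated, as no hg18 annotation was used here.

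The members and gene lists were chosen with earlier results of these data known. All member probes are given; of the context lists, genes at least 2-fold apart and the keratins KRT5, KRT6A, KRT14, KRT15, KRT16 and KRT17 are named, with exceptions stated. The 1.5-fold threshold and the run with marked spots kept were added after seeing the data. No p-value is given because each condition has 1 array. Alternatives covered scaling, background correction (normexp with an offset of 50 and quantile normalization, limma 3.58.1 in R 4.3.3), filters, limits, marked spots and genes in place of probes. Python 3.11.15 was used. Counting was tested on simulated data for eSAS against SAS: of 200 changed probes among 40822, 100% were recovered at 2-fold, and 0 of 27738 unchanged ones were called. That run checks the counting step only. It gives no rate of false or missed calls for the real arrays, which hold no replicate cultures.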

Additional observations from a re-analysis of the deposited data

How the results depend on the processing

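The counts of member keratin probes past 2-fold, 0 higher and 0 lower in eSAS, were the same under every alternative run. Of 168 values of the 12 probes under 14 alternatives, 151 moved by less than 0.078, the pooled SD of replicate spots over all signals (211 probes), and 17 by more, 6 of them under normexp on all spots, 5 under normexp without marked local backgrounds, 3 without background correction and 3 with median pixels. Most of the 168 values could not have moved that far. Changes of filter, lower limit, marked spots, rows and series table left all 12 values identical to those reported. No scaling and median centring each shifted all 12 by a common amount under 0.078. The count of 151 is therefore no measure of stability. The count at least 1.5-fold lower (1, KRT23) became 0 under normexp on all spots. The median of the member genes became 0.036 when probes not above background were kept, which adds KRT1 and KRT20 at their floors. For the other epithelial keratins, the 5 probes at least 2-fold apart became 2 under normexp on all spots. They became 3 under each of normexp without marked local backgrounds, no background correction, median pixels and genes in place of probes. They became 4 when probes had to be well above background on both arrays, and 6 without scaling. For the filament partners, 3 became 0 under normexp on all spots and 1 when genes replaced probes. The 3 became 2 under normexp without marked local backgrounds, without background correction and with median pixels. They also became 2 when probes had to be well above background on both arrays. For the other intermediate filaments, 1 became 0 under both forms of normexp, without background correction and when probes had to be above background on both arrays, and 2 with no lower limit. Over all probes the share at least 2-fold apart ran from 0.274% under normexp on all spots to 5.40% with no lower limit, beside 3.79%. The cause of these shifts was not tested. No paired analysis was possible because each condition has a single array, and no array could be left out or blocked by slide. KRT4, KRT13 and KRT18 probe 3 had signals under 100, where replicate spots had a pooled SD of 0.19.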
